A study of Mus musculus with 123 samples.

Results

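The genes described here are the enzymes of cholesterol and fatty acid synthesis and the proteins that control them, 33 symbols chosen by pathway and not by their values, among 24134 genes of the expression tables. 32 of them had a row, and Hmgcs1 was not analysed here. The set holds 6 measured enzymes of the mevalonate steps, 11 enzymes from squalene to cholesterol, 6 genes of SREBP control and sterol transfer, 3 enzymes that build palmitate and 6 desaturases and elongases. Sensory neurons of the dorsal root ganglion (DRG) were picked by hand from mice of 2 months after the right sciatic nerve had been cut (sciatic nerve transection, SNT), and the ganglia of the uncut side of the same animals served as control. At day 3 the mice were F1 animals of a CAST/Eij father and a C57BL/6 mother, and at day 7 they were C57BL/6 mice of both sexes, so that day, strain, sex and read length (50 bp and 75 bp) cannot be told apart. Both sides of an animal shared the anesthesia with ketamine and xylazine, the labels name no allele beyond the strains, and the study's methods give the F1 animals as female.

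The data are Smart-seq2 libraries, in which full-length transcripts are amplified without molecular identifiers. For each side at day 3, neurons lysed together in 1 tube were split into 3 parts, which gave 3 libraries of pooled neurons per side (563462 to 839135 counts per control-side and 1148849 to 2003817 per SNT-side library). Single neurons kept after the removal of outliers numbered 18 control-side and 41 SNT-side cells at day 3 (median 862619 and 1323932 counts) and 14 and 33 at day 7 (median 738947 and 575179 counts). Levels are given as CPM, the counts of a gene per 1e6 counts of its library, and were not divided by gene length, so they are compared between samples and not between genes. The names of the pooled columns were used for the side, although an identifier line in the table pairs all 6 with the other side, under which every sign of the pooled comparison would turn over. Atf3, the transcription factor used as injury marker, was at 1619, 1372 and 1409 CPM in the 3 pooled SNT-side libraries and at 8.25, 21.5 and 10.6 CPM in the control-side libraries, and was also higher in SNT-side cells of day 3 (1476 ± 1105 CPM, SD over 41 cells, against 17.7 ± 22.7 over 18). For these cells the identifier line matches the column names, so by column name Atf3 ran the same way in pools and cells.

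Cholesterol is made from acetyl-CoA through mevalonate, farnesyl diphosphate, squalene and lanosterol, and fatty acids are made from the same acetyl-CoA by ACLY, ACC and FASN before desaturases and elongases shape them. SREBP transcription factors (Srebf1, Srebf2) switch on most of these genes when SCAP carries them out of the endoplasmic reticulum, which INSIG proteins prevent while sterols are plentiful. Neurons need both lipids for their membranes, and an axon that regrows adds membrane, while glial cells are known as a major source of cholesterol in the nervous system.

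Promoter sequence was not used to choose the genes. RefSeq promoter windows (250 bases before the transcription start, build GRCm38.p6) matched 25 of the 32 genes by symbol, with 33 windows in all. Sqle, Fdps, Fdft1, Scd1, Scd2, Fads1 and Stard4 had no window. The CCAAT box, the 5-letter motif of the factor NF-Y that acts beside SREBPs, was found on either strand in 20 of these 33 windows (60.6%), against 33.8% of all 32851 windows, and 19 of the 25 genes had it in at least 1 window while 6 had none. These shares are a description without a test. The sterol regulatory element searched as TCACNCCAC was in 0 of the 33 windows and in 1.05% of all windows, and the AP-1 motif TGANTCA was in 2 of them (6.06% against 6.75%). With so rare a string, 0 of 33 windows cannot set these genes apart from the rest. No overlap between the motifs was removed, and a match describes letters only. The windows of the gene that rose and of 3 genes that fell are shown 5′ to 3′ on the gene's strand, with CCAAT boxes in capitals (ATTGG where the box lies on the other strand). They belong to Hsd17b7 (chr1:169969206-169969455, minus strand), Tm7sf2 (chr19:6067851-6068100, minus strand), Dhcr7 (chr7:143829964-143830213, plus strand, 1 of its 3 windows) and Elovl6 (chr3:129532136-129532385, plus strand).
Hsd17b7: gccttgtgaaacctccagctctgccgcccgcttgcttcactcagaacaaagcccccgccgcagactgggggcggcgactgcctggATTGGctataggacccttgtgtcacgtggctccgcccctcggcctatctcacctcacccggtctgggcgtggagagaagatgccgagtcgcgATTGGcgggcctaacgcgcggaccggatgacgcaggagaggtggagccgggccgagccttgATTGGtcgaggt
Tm7sf2: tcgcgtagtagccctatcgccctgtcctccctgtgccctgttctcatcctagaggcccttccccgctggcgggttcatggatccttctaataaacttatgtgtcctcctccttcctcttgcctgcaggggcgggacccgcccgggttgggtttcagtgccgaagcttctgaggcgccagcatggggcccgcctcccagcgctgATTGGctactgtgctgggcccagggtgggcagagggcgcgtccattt
Dhcr7: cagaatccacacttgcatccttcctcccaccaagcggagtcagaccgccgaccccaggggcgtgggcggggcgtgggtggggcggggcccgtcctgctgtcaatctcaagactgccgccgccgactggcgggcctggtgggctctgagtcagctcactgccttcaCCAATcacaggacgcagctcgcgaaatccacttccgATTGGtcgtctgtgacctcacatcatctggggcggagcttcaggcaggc
Elovl6: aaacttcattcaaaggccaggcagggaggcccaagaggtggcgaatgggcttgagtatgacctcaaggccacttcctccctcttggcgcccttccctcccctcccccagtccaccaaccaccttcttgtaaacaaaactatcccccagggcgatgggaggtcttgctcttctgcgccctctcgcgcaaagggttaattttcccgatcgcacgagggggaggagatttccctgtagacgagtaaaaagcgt
The window of Hsd17b7 held 3 CCAAT boxes, the windows shown of Dhcr7 and Tm7sf2 held 2 and 1, and that of Elovl6 held none. The Dhcr7 windows not shown held no box. Genes that rose and genes that fell thus both carried the box.

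In pooled neurons at day 3, sterol enzymes, desaturases and elongases were mostly lower on the SNT side, the 3 enzymes that build palmitate did not pass the test, and 1 sterol enzyme, Hsd17b7, rose. A gene was called at an adjusted p below 0.05 with a log2 change beyond 1 (edgeR quasi-likelihood test, Benjamini-Hochberg over 13509 genes). 8 of the 32 genes were called lower and 1 higher, against a background of 7.1% and 8.85% of all genes tested. By the adjusted p alone 19 were lower and 2 higher, with 10.8% and 14% of all genes as background. In 22 of the 32 all SNT-side libraries lay below all control-side libraries by CPM, in 2 they lay above and in 8 they overlapped, where 21.3% of all genes tested lay below and 16.8% above. The median log2 change of the 32 was -0.55, beside 0.02 over all genes tested. The libraries of a side are parts of 1 lysate, so these p-values measure technical spread between 2 pools and not the spread between animals, and fewer cells of a type cannot be told apart from less RNA per cell.

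**Figure D1:**
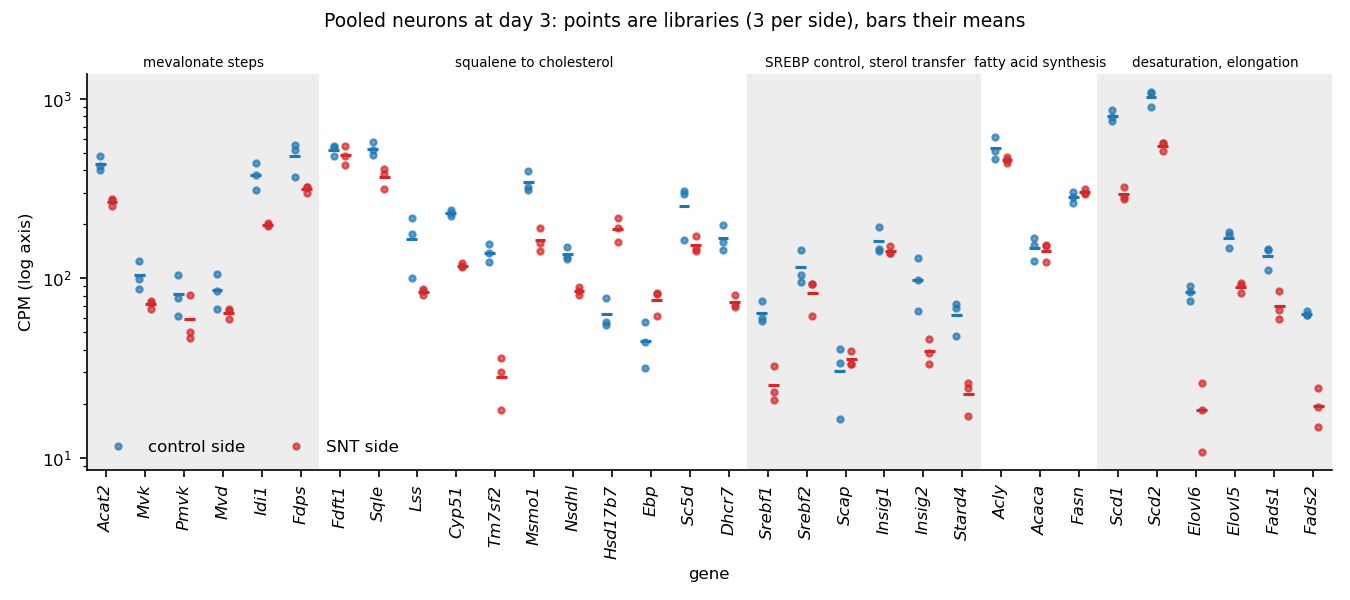
CPM of the 32 genes (log axis) in the pooled libraries of day 3, grouped by role, with 1 point per library (3 per side) and a bar at the mean of each side. Hsd17b7 and Ebp sit higher in every SNT-side library, 22 genes sit lower in every one, and the points of Acly, Acaca and Fasn overlap.

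Hsd17b7, the reductase that completes removal of a methyl group from the sterol ring, was the only one of the 32 called higher. It stood at 78.1, 57.2 and 55.0 CPM in the control-side libraries and at 216, 191 and 160 CPM in the SNT-side libraries. Each SNT-side library exceeded the highest control-side library, and the log2 change was 1.72 ± 0.20 (SE, adjusted p = 4.15e-09). Ebp, the sterol isomerase that follows in the pathway, was at 31.6, 57.2 and 44.4 CPM against 61.6, 82.7 and 81.3 CPM. It also had no overlap between sides and passed the adjusted p with a smaller log2 change of 0.90 ± 0.25 (adjusted p = 0.00519).

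Most other enzymes between squalene and cholesterol were lower. Tm7sf2, a sterol reductase that acts after the demethylase CYP51, was at 139, 155 and 122 CPM in control-side pools against 29.9, 35.7 and 18.5 CPM in SNT-side pools. This was the largest fall among the 32 genes, with a log2 change of -2.19 ± 0.23 (adjusted p = 9.09e-10). Vps51, which overlaps Tm7sf2 on the same strand in GENCODE M21, was at 57.8 and 56.4 mean CPM on the 2 sides. Dhcr7, the reductase of the last step to cholesterol, was at 160, 198 and 144 CPM against 69.3, 81.0 and 70.8 CPM, and its log2 change of -1.03 ± 0.19 (adjusted p = 3.62e-05) lay just past the limit of 1 and not past it without control-side library 2 (-0.90) or SNT-side library 1 (-0.97). Msmo1, Cyp51, Lss, Sc5d and Nsdhl, which carry out demethylation, lanosterol formation and desaturation of the ring, passed the adjusted p with log2 changes from -0.91 to -0.51. Fdft1 (0.05 ± 0.13) and Sqle (-0.35 ± 0.14, adjusted p = 0.0510), which make squalene and its epoxide, did not pass. On the opposite strand Cyp51 overlaps Akap9, which was also lower (mean 76.3 against 42.6 CPM, log2 -0.70, adjusted p = 0.0238), Fdft1 overlaps Ctsb, which was higher (2022 against 3122 CPM, log2 0.78, adjusted p = 2.83e-07), and Lss overlaps 4930483K19Rik, and reads of such pairs cannot be told apart in libraries without strand.

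Of the 6 mevalonate enzymes 3 passed the adjusted p, all lower. These were Idi1, the isopentenyl diphosphate isomerase (441, 310 and 376 CPM in control-side pools and 202, 196 and 199 CPM in SNT-side pools, log2 -0.75), Acat2, the thiolase of the first step (log2 -0.54), and Fdps, the farnesyl diphosphate synthase (log2 -0.45). Mvk, Pmvk and Mvd, the kinases and the decarboxylase between them, had log2 values from -0.39 to -0.28 and did not pass. The summed level of the 17 sterol enzymes was 4082, 4183 and 4201 CPM in control-side pools against 2807, 2887 and 2700 CPM in SNT-side pools.

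Among the genes that control the pathway, 3 of 6 were called, all lower. Srebf1, which encodes SREBP-1, was at 57.8, 74.9 and 60.3 CPM against 23.3, 32.2 and 20.96 CPM (log2 -1.21 ± 0.27, adjusted p = 7.54e-04). Insig2, a retention protein of the SREBP complex, was at 97.6, 65.5 and 130 CPM against 46.03, 38.3 and 33.4 CPM (log2 -1.13 ± 0.24, adjusted p = 4.09e-04), and without control-side library 3 its log2 change was -0.89 and within the limit. Stard4, which moves sterol between membranes, was at 71.5, 67.9 and 47.9 CPM against 24.5, 26.1 and 16.97 CPM (log2 -1.34 ± 0.28, adjusted p = 3.08e-04). For these 3 genes no SNT-side library reached the lowest control-side library. Srebf2 (log2 -0.35 ± 0.21), Scap (0.38 ± 0.31) and Insig1 (-0.00 ± 0.17, 95% interval -0.34 to 0.34) did not pass. Srebf1 overlaps Rai1 on the opposite strand, which had 26.7 against 14.7 mean CPM (log2 -0.65 ± 0.39, adjusted p = 0.241).

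All 6 desaturation and elongation genes passed the adjusted p and were lower, and 3 of them were called. Scd1, the desaturase that turns stearate into oleate, was at 869, 795 and 754 CPM in control-side pools against 322, 285 and 276 CPM in SNT-side pools (log2 -1.29 ± 0.13, adjusted p = 2.10e-10). Elovl6, which lengthens palmitate to stearate, was at 90.8, 75.1 and 84.1 CPM against 10.8, 26.2 and 18.5 CPM (log2 -2.04 ± 0.29, adjusted p = 4.10e-07). Fads2, the first desaturase of polyunsaturated fatty acids, was at 62.2, 65.5 and 62.0 CPM against 14.7, 24.4 and 19.2 CPM (log2 -1.56 ± 0.29, adjusted p = 4.31e-05). For these 3 genes the highest SNT-side library stayed far below the lowest control-side library. Scd2, Elovl5 and Fads1 had log2 changes from -0.76 to -0.73. Scd1 and Scd2 are close copies, so the division of shared reads between them is uncertain. In contrast, Acly (log2 -0.06 ± 0.13), Acaca (0.09 ± 0.17) and Fasn (0.27 ± 0.14), which supply and elongate malonyl-CoA up to palmitate, did not pass, and their libraries overlapped. The 95% interval of Fasn, -0.01 to 0.54, leaves out a fall of the size of the desaturases.

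Markers of other cells moved with these values. 4 markers of satellite glia (Fabp7, Kcnj10, Cdh19, Sox10, picked from the glial list after values were seen) summed to 725, 732 and 696 CPM in the control-side pools and to 183, 196 and 196 CPM in the SNT-side pools. Over the 9 glial markers used the sums were 2531 to 2915 and 2045 to 2097 CPM, 3 markers were called lower (Fabp7, Kcnj10, Cdh19) and 2 of myelinating cells higher (Prx, Ncmap). Glul of the same list also went up, unlike the 4, from 148 to 197 mean CPM (log2 0.57, adjusted p = 0.00871). Pmp22 was the largest part of the 9-marker sums, at 1635 and 1448 mean CPM, and did not pass (log2 -0.01). The sum of 8 immune markers was at most 4.77 CPM in control-side and 8.98 CPM in SNT-side pools. Markers of neuron subtypes moved too. Of 6 markers of nonpeptidergic neurons 5 were called lower, by unlike amounts. Mrgprd fell from 1074, 938 and 1022 CPM to 0.598, 2.61 and 0 CPM. P2rx3 fell from 782 to 298 mean CPM (log2 -1.23), and Plxnc1 was not called (log2 -0.84). Fewer such neurons cannot be told apart from less marker RNA in each. Of 4 markers of large myelinated neurons Nefh (log2 1.19) and Ntrk3 (log2 1.62) were called higher. Ntrk2 passed the adjusted p in the other direction (log2 -0.78, adjusted p = 2.21e-04) and Pvalb did not pass (log2 1.22). Their part in the pooled values was not tested, and the single neurons give the same genes cell by cell.

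Other genes of lipid handling were read from related lists. 2 of 20 tested genes of sterol uptake and transport, 1 of 10 of other mevalonate branches and 4 of 26 of acyl-CoA supply and use were called, against 16% of all genes tested in either direction. Of the 8 genes of SREBP cleavage and sterol sensing, none passed the adjusted p of the edgeR fit. Erlin1, named after its value was seen, came closest (log2 0.89 ± 0.35, adjusted p = 0.0572). Abca1, the exporter that loads cholesterol on apolipoproteins, rose from 127, 79.8 and 114 CPM to 520, 552 and 459 CPM (log2 2.43 ± 0.16, adjusted p = 3.27e-15). Its relative Abcg1 fell (log2 -1.41 ± 0.22). Dgat2 of triglyceride synthesis (log2 2.56) and Cpt1a of mitochondrial fatty acid oxidation (log2 1.12) rose. Icmt, which methylates prenylated proteins (log2 -1.07), Hsd17b12, a reductase of fatty acid elongation (log2 -1.14), and Gpam of glycerolipid synthesis (log2 -1.45) fell.

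No animal is named for the single neurons. Each side and day of cells therefore counts as 1 sample, and the values are a description without a test. A gene is counted here when the ratio of mean CPM + 1 between sides lay beyond 1 on the log2 scale. At day 3, 1 of the 32 genes was higher (Hsd17b7) and 3 were lower (Elovl6, Tm7sf2, Stard4), with 6.78% and 6.35% of 13644 genes as background. The median log2 ratio of the 32 was -0.15, beside -0.05 over all genes. At day 7, 1 was higher (Hsd17b7) and 3 were lower (Dhcr7, Scd1, Fads2), with 5.99% and 3.63% of 13264 genes as background, and the median was -0.43 beside -0.04. Below 0 were 20 of the 32 genes at day 3 and 27 at day 7, beside 7348 of 13644 and 7119 of 13264 genes tested. With the 11 outlier cells of day 3 included, the counts of that day became 1 higher and 0 lower, with log2 ratios of 1.20 for Hsd17b7, -0.90 for Elovl6, -0.95 for Tm7sf2 and -0.99 for Stard4.

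**Figure D2:**
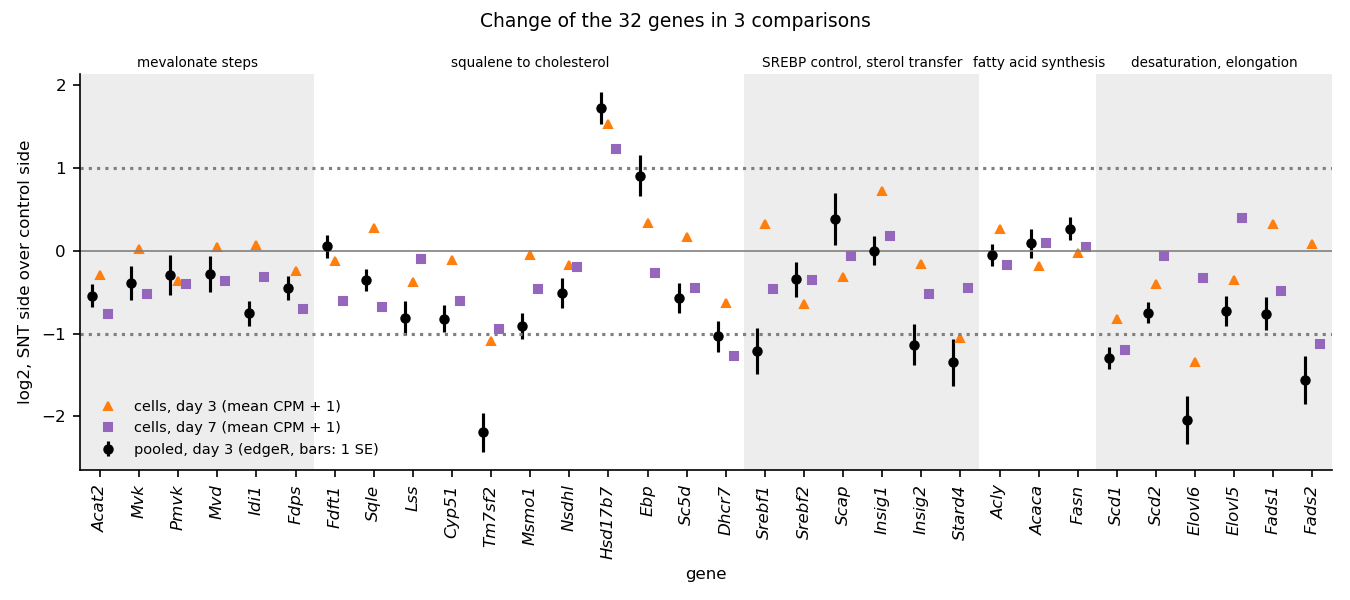
Log2 of the SNT side over the control side for the 32 genes in pooled neurons of day 3 (black, bars 1 SE) and in cells of day 3 and day 7 (triangles and squares, no error bars since cells of a side are 1 sample), with dotted lines at 1 and -1. Hsd17b7 lies above 1 in all 3, Acly, Acaca and Fasn lie between -0.18 and 0.27 in all 3, and Tm7sf2, Scd1 and Dhcr7 lie at -0.63 or lower in all 3.

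In single cells of day 3 the summed sterol enzymes lay closer between sides than in the pools. The summed level of the 17 sterol enzymes was 3343 ± 1163 CPM in control-side and 3229 ± 1066 CPM in SNT-side cells at day 3 (SD over 18 and 41 cells), a difference far inside the spread between cells. At day 7 it was 2732 ± 1204 against 1969 ± 960 CPM. The desaturation and elongation genes summed to 1984 ± 548 against 1372 ± 514 CPM at day 3 and to 2206 ± 914 against 1601 ± 708 CPM at day 7. The 3 palmitate-building enzymes summed to 1042 ± 478 against 1117 ± 487 CPM and to 971 ± 483 against 940 ± 505 CPM.

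Hsd17b7 was high in a part of the SNT-side cells. At day 3 its level ran from 21.3 through a median of 61.3 to 203 CPM over control-side cells, and from 15.6 through 178 to 784 CPM over SNT-side cells. 18 of 41 SNT-side cells exceeded every control-side cell. At day 7 control-side cells ran from 26.8 through 74.3 to 199 CPM and SNT-side cells from 6.36 through 115 to 1421 CPM, with 9 of 33 cells above every control-side cell. The log2 ratios of the means were 1.53 and 1.22, and that of the medians at day 7 was 0.62. The ranges overlapped at the low end on both days.

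SNT-side cells fall into 2 kinds by Atf3, a measured level and not a label. 30 of 41 cells at day 3 and 12 of 33 at day 7 were above every control-side cell (highest 75.7 and 28.997 CPM) and are called Atf3-high here, with 951 to 4436 CPM at day 3 and 704 to 1778 CPM at day 7. The rest, called Atf3-low, were at or under 23.04 and 13.9 CPM, so no SNT-side cell lay near the border. Atf3 itself answers to the cut, so the split is a description of cells within the SNT side. Set beside the control-side cells, 1 of the 32 genes lay above 1 and 3 below -1 in Atf3-high cells of day 3 (background 8.56% and 11.7%), and 0 and 0 in Atf3-low cells (1.84% and 3.86%). At day 7 the counts were 1 and 4 in Atf3-high cells (8.55% and 15.9%) and 0 and 5 in Atf3-low cells (4.59% and 2.91%). The 5 were Mvd (-1.25), Mvk (-1.23), Dhcr7 (-1.19), Scd1 (-1.13) and Acat2 (-1.03). The median log2 ratio of the 32 at day 7 was -0.61 in Atf3-low cells, beside -0.02 over all genes. In Atf3-high cells it was -0.25, beside -0.19.

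**Figure D3:**
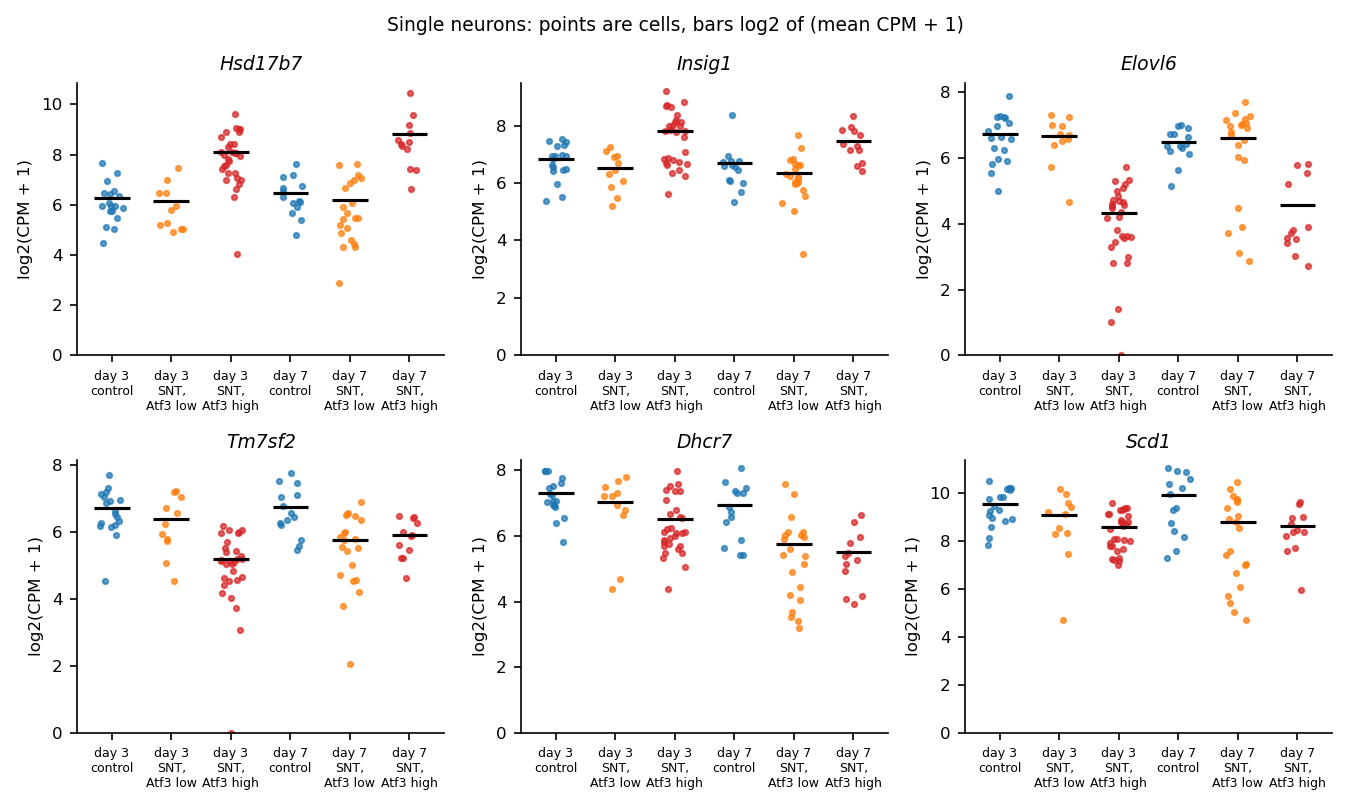
Log2(CPM + 1) of 6 genes in control-side cells, Atf3-low and Atf3-high SNT-side cells of each day, with 1 point per cell and a bar at log2 of the mean CPM + 1. Hsd17b7 and Insig1 are higher and Elovl6 is lower in Atf3-high cells on both days, while Dhcr7 and Scd1 at day 7 are low in both kinds of SNT-side cell.

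Hsd17b7 was at 277 ± 171 CPM in Atf3-high and 69.3 ± 47.5 CPM in Atf3-low cells at day 3 (SD, 30 and 11 cells), beside 76.1 ± 45.2 CPM in control-side cells. At day 7 it was at 447 ± 357 and 71.3 ± 58.0 CPM (12 and 21 cells), beside 88.7 ± 46.3 CPM. All cells above the control range on both days, 18 and 9, were Atf3-high, and the log2 ratios to the control side were 1.85 and 2.32 in Atf3-high and -0.13 and -0.31 in Atf3-low cells.

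Elovl6 showed the opposite order. At day 3 control-side cells ran from 30.6 through a median of 96.8 to 233 CPM, Atf3-high cells from 0 through 18.3 to 51.1 CPM and Atf3-low cells from 24.03 through 101 to 157 CPM. 24 of the 30 Atf3-high cells lay below every control-side cell, against 1 of the 11 Atf3-low cells. At day 7 Atf3-high cells ran from 5.60 through 12.5 to 54.5 CPM and 8 of 12 lay below every control-side cell, while the Atf3-low cells ran from 6.36 through 109 to 203 CPM, with 5 of 21 below and 8 of 21 above the control range. Over all day-7 SNT-side cells its log2 ratio was therefore only -0.33, made up of -1.89 in Atf3-high and 0.13 in Atf3-low cells.

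Insig1, which encodes an INSIG protein and showed no difference in the pools, was higher in Atf3-high cells at day 3. It was at 223 ± 132 CPM there, beside 90.8 ± 38.5 CPM in Atf3-low and 114 ± 43.5 CPM in control-side cells. 18 of 41 SNT-side cells exceeded every control-side cell, all of them Atf3-high. At day 7 the means were 175 ± 71.1, 80.5 ± 41.8 and 102 ± 68.8 CPM, and 0 cells exceeded the highest control-side cell. Fasn, Acaca and Acly were higher in the Atf3-high cells of day 7 (log2 ratio to the control side 0.73, 0.62 and 0.38) than in the Atf3-low cells (-0.56, -0.32 and -0.64). In Acaca 8 Atf3-high cells exceeded every control-side cell. Nefh differed between these kinds of cell as well. Across SNT-side cells of day 7 it had Spearman correlations of -0.69 with Fasn, -0.58 with Acaca and -0.73 with Acly. The part of neuron subtype was not tested. At day 3 the ratios in Atf3-high cells were 0.09 for Fasn, -0.14 for Acaca and 0.34 for Acly.

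Tm7sf2 and Stard4 fell at day 3 mainly by their Atf3-high cells. Tm7sf2 was at 35.6 ± 18.4 CPM in Atf3-high, 83.2 ± 44.1 CPM in Atf3-low and 104 ± 43.2 CPM in control-side cells, and 7 Atf3-high cells lay below the lowest control-side cell. Stard4 was at 25.6 ± 15.3, 40.7 ± 18.9 and 62.8 ± 43.5 CPM. At day 7 Tm7sf2 was lower in both kinds of cell (58.4 ± 21.6 and 53.5 ± 31.5 CPM, beside 107 ± 53.8 CPM). Dhcr7 at day 7 was likewise at 44.6 ± 26.8 CPM in Atf3-high and 53.2 ± 47.2 CPM in Atf3-low cells beside 122 ± 67.2 CPM, with 17 of 33 SNT-side cells below every control-side cell. Scd1 at day 7 was at 395 ± 218 and 449 ± 416 CPM beside 983 ± 699 CPM, with ranges that overlapped widely (60.7 to 797, 25.4 to 1402 and 156 to 2131 CPM).

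At day 7 the sterol enzyme level differed between the kinds of SNT-side cell. Nefh and the sum of the 9 glial markers varied with it. The 17 enzymes summed to 2735 ± 659 CPM in Atf3-high and 1531 ± 827 CPM in Atf3-low cells, beside 2732 ± 1204 CPM in control-side cells. Nefh, the heavy neurofilament of large myelinated neurons, was at 1747 ± 750 CPM in Atf3-high and 4060 ± 2188 CPM in Atf3-low cells, beside 2954 ± 1827 CPM in control-side cells. Across cells of 1 group the sterol sum and Nefh had Spearman correlations of -0.83 (14 control-side) and -0.78 (33 SNT-side) at day 7 and of -0.23 on both sides at day 3, as a description over cells that share library preparation and whose CPM add up to a fixed total. The day-7 sterol sum also had Spearman correlations of 0.60 (14 control-side cells) and 0.66 (33 SNT-side cells) with the 9 glial markers, and of 0.24 and 0.44 with total counts. The 9 glial markers averaged 1151 ± 293 CPM in control-side, 982 ± 434 CPM in Atf3-high and 713 ± 555 CPM in Atf3-low cells. With the 4 satellite glia markers alone the sterol sum had correlations of -0.24 (control-side) and 0.14 (SNT-side). These 4 averaged 210 ± 175, 117 ± 225 and 192 ± 225 CPM in the same order of groups, so their Atf3-high mean was the lower one. Prx and Ncmap together averaged 1.69 CPM in control-side cells, so most of the 9-marker sum there was Glul, Mbp and Pmp22. The part of neuron subtype, glial RNA and depth in the day-7 difference was not tested.

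**Figure D4:**
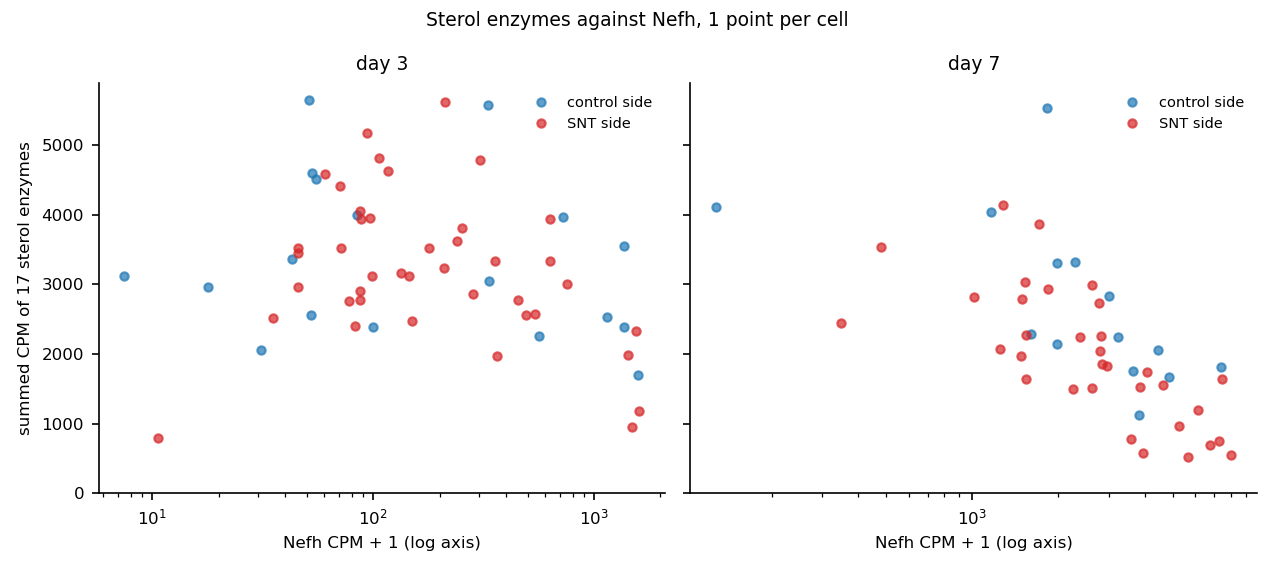
Summed CPM of the 17 sterol enzymes against Nefh CPM + 1 (log axis) in the kept cells of day 3 (18 control-side, 41 SNT-side) and day 7 (14 and 33), with 1 point per cell. At day 7 the sum falls from left to right on both sides (Spearman -0.83 and -0.78), and SNT-side cells with the most Nefh hold the lowest sums.

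The sterol enzymes varied together from cell to cell. Over the 136 pairs of the 17 enzymes the median Spearman correlation was 0.49 and 0.43 in control-side and SNT-side cells of day 3, and 0.58 and 0.60 at day 7, while over all pairs of genes with at least 10 mean CPM it was between 0.00220 and 0.0104. Hsd17b7 had a median correlation with the other 16 enzymes of 0.42 in control-side and 0.27 in SNT-side cells at day 3, and of 0.48 and 0.56 at day 7. The SNT-side groups hold both Atf3-high and Atf3-low cells. At day 7 both Hsd17b7 and the sterol sum had higher means in the Atf3-high cells. The part of this mixture in the SNT-side correlations was not tested. For the 6 desaturation and elongation genes the medians were 0.18 and 0.41 at day 3 and 0.31 and 0.48 at day 7. These are descriptions over cells, whose depth and preparation are shared.

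Fads2 had a higher mean in picked neurons with more satellite glia marker RNA in all 4 groups. Kept cells were divided at 100 CPM of the 4 satellite glia markers, a limit set after values were seen. At day 3 the SNT-side cells nearest to it lay at 98.3 and 108 CPM. In control-side cells of day 3, Nefh ran from 6.48 to 98.7 CPM under the limit and from 16.8 to 1575 CPM over it. Fads2 averaged 5.96 CPM in the 9 control-side cells under the limit and 51.6 CPM in the 9 over it at day 3, and 10.2 and 44.8 CPM in 17 and 24 SNT-side cells. At day 7 the pairs were 14.5 and 58.7 CPM (4 and 10 control-side cells) and 4.92 and 44.7 CPM (20 and 13 SNT-side cells). In control-side cells of day 3, Fads2 had Spearman correlations of 0.71 with the 4 markers and 0.66 with Nefh. Its correlation with Nefh was -0.01 in SNT-side cells of day 3 and -0.38 and -0.32 on the 2 sides at day 7. The 6 genes together ran from 590 to 1837 CPM in the 20 SNT-side cells of day 7 under the limit and from 1663 to 3048 CPM in the 13 over it. In control-side cells of day 3 the 6 genes averaged 1997 ± 677 CPM under and 1972 ± 426 CPM over the limit, and at day 7 they averaged 1711 ± 1157 CPM in 4 and 2404 ± 780 CPM in 10 control-side cells, so on the control side both gaps lay inside the spread between cells.

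**Figure D5:**
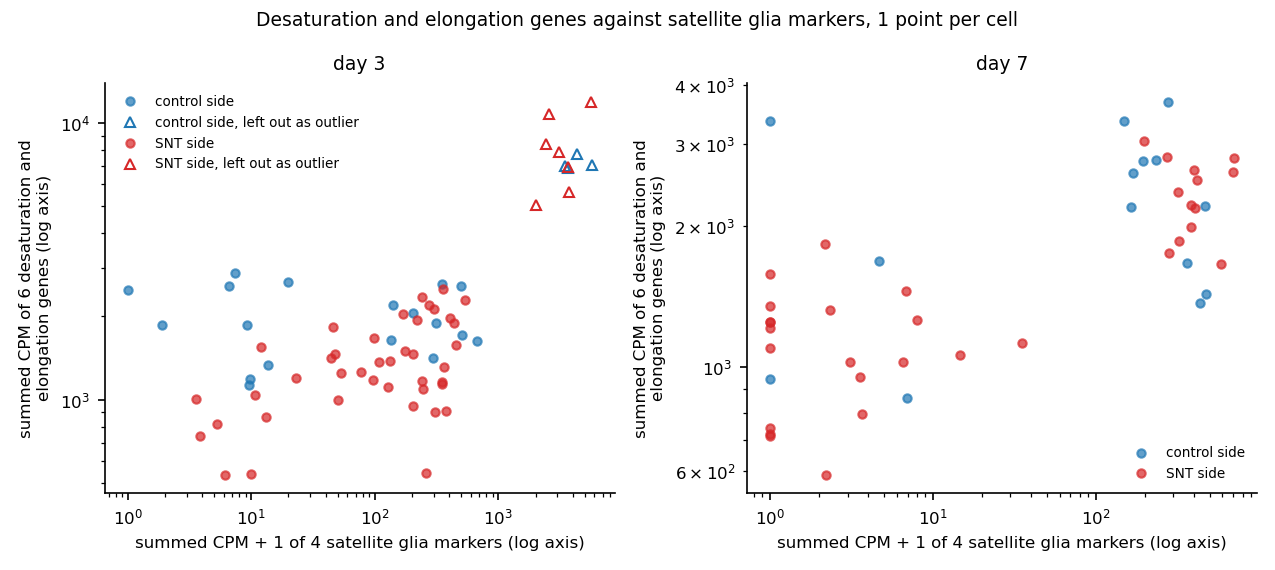
Summed CPM of the 6 desaturation and elongation genes against the summed CPM + 1 of 4 satellite glia markers (both log axes) at day 3 and day 7, with 1 point per kept cell and open triangles for the 11 day-3 cells left out as outliers. The outlier cells stand apart with 2009 to 5692 CPM of the markers and 5040 to 11929 CPM of the 6 genes, and the day-7 SNT-side cells split into 2 levels.

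The ratios between sides were also read under and over this limit, which rests on the 4 satellite markers alone. In cells under it the SNT-side to control-side log2 ratio at day 3 was -1.54 for Elovl6, -1.18 for Tm7sf2, -1.19 for Scd1, -0.57 for Dhcr7, 0.69 for Fads2 and 1.63 for Hsd17b7, against -1.15, -1.01, -0.56, -0.70, -0.20 and 1.39 in the cells over it. The same genes at day 7 had -0.66, -1.11, -1.69, -1.55, -1.39 and 1.84 under the limit, where the control side held 4 cells, and 0.18, -0.66, -0.54, -0.81, -0.38 and 1.15 over it. Elovl6 at day 7 and Fads2 at day 3 thus had opposite signs under and over the limit. Cells under it were not free of satellite marker RNA, and the 4 markers differed between sides there by a log2 ratio of 2.01 at day 3 (means 7.81 and 34.5 CPM). In addition, 1 control-side cell under it held 3854 CPM of the 9 glial markers. Of this, the 4 satellite markers made up 8.77 CPM and Prx with Ncmap 10.2 CPM, and the rest was Glul, Mbp and Pmp22. The part of glial RNA and of neuron subtype in these ratios was not tested. The satellite glia markers themselves had a median of 76.03 CPM in control-side and 169 CPM in SNT-side cells at day 3, with means of 177 ± 215 and 181 ± 152 CPM, unlike the fall in the pools. Medians at day 7 were 181 and 5.86 CPM. Fads2 and Srebf1, called lower in the pools, had day-3 cell ratios of 0.08 and 0.32, and Insig2 had -0.17.

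At day 7 both sexes were picked, with 7 female and 7 male control-side cells and 16 and 17 SNT-side cells. 23 of the 32 genes were below 0 in both sexes, 5 above 0 in both and 4 of opposite sign. This count was not made over all genes. The median log2 ratio of the 32 was -0.51 in females and -0.31 in males, beside -0.07 and -0.02 over all genes tested. The difference between sexes was not tested since each sex and side is 1 sample. Hsd17b7 had log2 ratios of 1.58 in females and 0.72 in males, and Fads2 had -2.21 and -0.48. Atf3-high cells made up 8 of 16 female and 4 of 17 male SNT-side cells, and the satellite glia markers averaged 40.995 ± 102 CPM in female and 281 ± 247 CPM in male SNT-side cells, beside 166 ± 180 and 254 ± 173 CPM on the control side, so neither share was alike between the sexes.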

How the data were processed

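Smart-seq2 libraries of single DRG neurons (117 cells, 106 kept) and of pooled neurons (6 libraries) were analysed. Per the labels and the study's methods, the authors separated reads with CASAVA 1.8.2, mapped them with bowtie2 to mm9, quantified RefSeq exons with RSEM and left out ribosomal RNA. The deposited files carry TPM in their names. Column totals nevertheless run from 223967 to 2003817 and 60.7% to 93.6% of values above 0 are whole, and they were therefore taken to be expected counts, deposited by the authors without normalization, and were rounded for the count test. The table without outliers defined the kept cells.

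CPM used the column total. Pooled libraries were tested with edgeR 4.0.16 (quasi-likelihood, TMM, prior count 0.125, minimum mean of 1 CPM per gene) in R 4.3.3, Benjamini-Hochberg over all 13509 genes, and called as stated in the results. The printed CPM are not TMM-scaled. Errors of log2 changes are 1 SE. Cells were described in Python 3.11.15 with numpy 2.4.6, pandas 2.3.3, scipy 1.17.1 and matplotlib 3.10.9, by log2 ratios of mean CPM + 1, with the same minimum mean. Alternatives were DESeq2 1.42.0, limma 3.58.1, other scalings, low limits, prior counts and pseudocounts, a replicate block, libraries left out, thinning, all cells, and cells by Atf3, sex or glial markers.

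The 33 members, the related list and the marker lists were chosen with earlier results of these data known. All measured members are named, and other genes are those of the marker lists, Atf3, genes that overlap members and the called genes of the related list. The satellite glia subset and its limit of 100 CPM were chosen after values were seen, and 2 genes of the glial list are not reported here and entered no sum. Promoter windows are of a later build (GRCm38.p6) than the mapping and were matched by gene symbol.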

Additional observations from a re-analysis of the deposited data

Results flagged for a closer look

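Of the 117 cells, 11 day-3 cells (4 control-side and 7 SNT-side) were left out of the comparisons as outliers by the authors, and their values lie outside the measurements used above. In 7 of these 11 cells the summed level of the 17 sterol enzymes exceeded every kept control-side cell of day 3, whose highest sum was 5645 CPM, and in 11 of 11 the summed level of the 6 desaturation and elongation genes did so, whose highest kept sum was 2869 CPM. The sums ran from 1621 to 9894 CPM (median 6314) and from 5040 to 11929 CPM (median 7048). Scd1, Scd2, Elovl5, Fads1 and Fads2 each lay above every kept control-side cell in all 11. Fads2 was 13.6-fold, Fads1 9.52-fold and Srebf1 7.53-fold the mean of the kept control-side cells, whereas Elovl6 was 1.11-fold, Fasn 1.10-fold and Acly 0.467-fold. The 4 satellite glia markers summed to 2009 to 5692 CPM in these cells and the 8 neuron markers to 366 to 6593 CPM. Their part in the lipid gene values was not tested.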

How the results depend on the processing

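In the pools the counts were 1 higher and 8 lower. By the adjusted p alone they were 2 and 19 (21 in all), and thinned to the smallest library 2 and 7. Leaving out 1 library at a time gave 1 to 2 higher (Ebp joined without control-side library 2 or SNT-side library 1) and 7 to 9 lower. Library size alone and limma each gave 1 and 9, and library size alone moved the median of all genes from 0.02 to -0.14 and the share of higher among called genes from 55.4% to 43.7%. DESeq2, edgeR's RLE scaling, a prior count of 2, no low limit and a limit of 10 CPM gave 1 and 8. Same-numbered pools did not deviate together (correlations 0.13, 0.0070 and -0.022), so they share only a number, and the fit with the replicate block gave 1 and 8. No member changed direction with a call in any of these. At day 3 (1 and 3 in cells), medians over cells gave 1 and 2, with Stard4 at -0.69 in place of -1.06, cells below the median of the satellite glia markers gave 1 and 3 with Scd1 in place of Stard4 (-0.87), a pseudocount of 10 CPM gave 2 genes in all, 1 higher and 1 lower, and all cells of the full table gave 1 in all, 1 higher and 0 lower. At day 7 (1 and 3), medians over cells gave 0 higher and 4 lower, female cells 1 and 5, male cells 0 and 3, and cells below the median of the satellite glia markers, an alternative added after the data were seen, 1 and 5. The cause of these shifts was not tested. Depth limits genes of a few CPM in cells.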
